A study of Mus musculus with 2 samples.

Results

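The miR-199 and miR-214 microRNAs were read by 5 probes of the mouse microRNA array, out of 1892 microRNA probes in all. They are mmu-miR-199a-5p, mmu-miR-199a-3p, mmu-miR-199b-5p, mmu-miR-214-3p and mmu-miR-214-5p, taken by probe name and not by signal. Unwounded skin and unwounded oral mucosa were each profiled on 1 array. Each array received 2 µg of RNA from a pool of 3 animals, and the comparison of 2 arrays thus has no replicate across animals. Per the study's methods the animals were adult female Balb/c mice, with no transgene or treatment named for these baseline specimens. The sample labels name the material skin and oral mucosa, whereas the series title and part of the study's text speak of epithelium. Where on the body the matched pieces were cut and whether connective tissue was removed are not given in the sources used here, so how much stroma each pool held is unknown.

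A microRNA gene is transcribed into a hairpin, and each side of the hairpin (its 5p and 3p arm) can give a mature microRNA. A mature microRNA finds messenger RNAs mainly through its seed, bases 2 to 8 from its 5′ end. MiR-199a and miR-214 are best known from mesenchymal cells such as fibroblasts, smooth muscle cells and pericytes, where they are made from a shared long transcript, Dnm3os, under the transcription factor Twist1. MiR-214-3p is known to repress the chromatin regulator Ezh2, miR-199a-3p the kinase mTOR and the receptor Met, and miR-199a-5p the membrane protein caveolin-1. In pooled RNA such as this, more cells of a type and more RNA per cell cannot be told apart.

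The mature sequences below are the targets that the array files give for the probes, with the seed in capitals. They are shown because they decide which probes can be read as separate microRNAs.
mmu-miR-199a-5p: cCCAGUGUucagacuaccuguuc
mmu-miR-199b-5p: cCCAGUGUuuagacuaccuguuc
mmu-miR-199a-3p: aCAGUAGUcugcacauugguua
mmu-miR-214-3p: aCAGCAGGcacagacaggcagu
mmu-miR-214-5p: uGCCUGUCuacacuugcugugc

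MiR-199a-5p and miR-199b-5p share the seed and differ at 1 of 23 bases, C10U, with positions counted from 1 at the 5′ end of miR-199a-5p. How far each of these probes also binds the other microRNA was not tested. For each of the other 3 members the nearest probe on the array by sequence was 7 or 8 edits away (a base changed, added or lost). The array files assign the miR-199a-3p probe to miR-199b-3p as well, since the mature forms are identical, so this probe reads the 3p arms of all miR-199 hairpins together. The only other probe with a member's seed was miR-761, which shares that of miR-214-3p. It read 48.2 and 39.3 on its skin spots and 55.9 and 47.8 on its oral mucosa spots, and it was detected on neither array.

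By the RefSeq annotation of GRCm38.p6, Mir199a-2 lies at chr1:162217814-162217923 and Mir214 at chr1:162223368-162223477, both on the plus strand and 5444 bases apart. Both fall within the long non-coding RNA gene Dnm3os (chr1:162217623-162225550), which runs on the plus strand within the span of Dnm3, a dynamin gene of the minus strand. The hairpins of this shared transcript are shown with the mature arms in capitals, 5p before 3p.
Mir199a-2: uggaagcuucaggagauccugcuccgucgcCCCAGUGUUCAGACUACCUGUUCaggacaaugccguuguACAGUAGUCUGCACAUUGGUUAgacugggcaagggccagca
Mir214: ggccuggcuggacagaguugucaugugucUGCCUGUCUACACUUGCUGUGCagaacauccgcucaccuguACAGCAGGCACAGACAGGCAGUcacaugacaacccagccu

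The same mature miR-199a arms are also encoded by Mir199a-1 (chr9:21496495-21496564, minus strand), which lies opposite to Dnm2. MiR-199b-5p comes from Mir199b (chr2:32318460-32318569, plus strand), which lies opposite to Dnm1. Each of these hairpins therefore sits on the strand opposite to a dynamin gene. The array cannot say which hairpin supplied miR-199a-5p or miR-199a-3p. The miR-214 arms have a single annotated source.

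The array values are the median Cy5 brightness of each spot in scanner units, with every probe on 2 repeat spots. The detection limit of an array was the mean of its 16 empty spots plus 3 SD, which came to 59.9 for skin and 71.8 for oral mucosa, and a probe whose mean exceeded it was called detected. By this rule 562 of the 1892 probes were detected on at least 1 array. Of the 5 members, 3 were detected on both arrays, and miR-199b-5p and miR-214-5p on the oral mucosa array only. Signals of different probes depend on how each probe binds, so they are not compared with each other here. An SD given below is over 2 repeat spots of 1 array and covers technical error only. The oral mucosa array was the brighter one, with a median probe signal of 52.2 against 42.2 on the skin array. Raw spots of any probe thus tend to lie higher on it.

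MiR-214-3p read 198 and 171 on its skin spots and 956 and 940 on its oral mucosa spots. Both oral mucosa spots lay far above both skin spots, and the spots of 1 array differed by at most 1.16 times. MiR-214-5p, the opposite arm, read 57.0 and 52.4 on its skin spots, under the detection limit, and 204 and 178 on its oral mucosa spots. Thus by this limit the one arm was seen in both tissues and the other in oral mucosa only. This depends on the limit. After a correction for background along the array, described below, and with the limit recomputed, miR-214-5p was also detected in skin, at 52.05 against 50.7.

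MiR-199a-3p read 129 and 103 on its skin spots and 362 and 331 on its oral mucosa spots. MiR-199a-5p read 77.8 and 80.3 on its skin spots and 167 and 154 on its oral mucosa spots. For both arms the oral mucosa spots lay above the skin spots, but the skin signals were low, with means of 1.94 and 1.32 times the detection limit. MiR-199b-5p read 54.6 and 52.4 on its skin spots, under the limit, and 81.2 and 84.3 on its oral mucosa spots, a mean of 1.15 times the limit. The latter therefore rests on a signal close to the limit in oral mucosa.

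**Figure D1:**
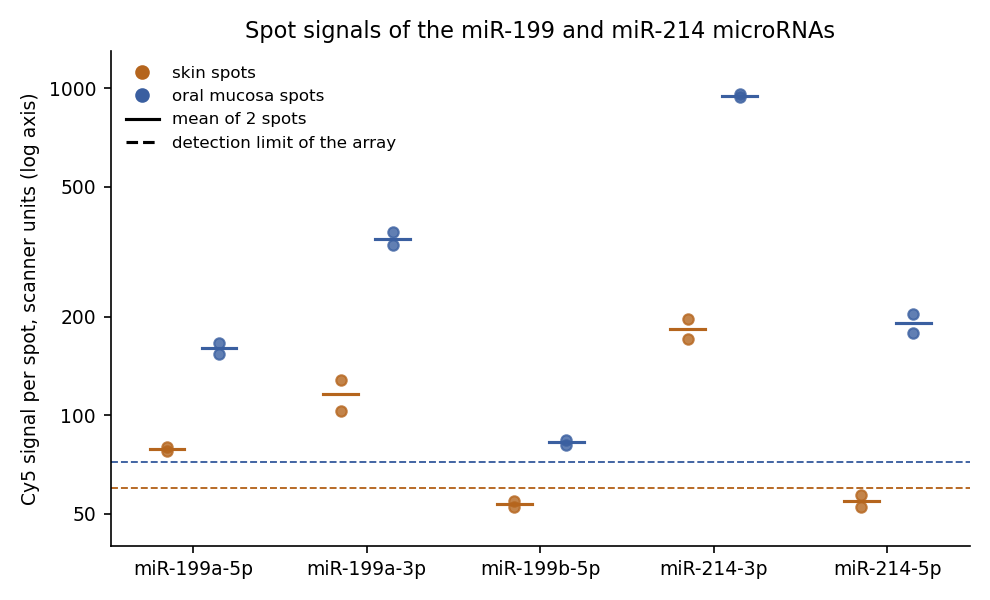
Cy5 signal (scanner units, log axis) of the 2 repeat spots of each member on the arrays of skin (orange) and oral mucosa (blue), with a bar at their mean and a dashed line at the detection limit of each array. All oral mucosa spots lie above the skin spots of the same probe, and the skin spots of miR-199b-5p and miR-214-5p lie under the skin limit of 59.9. The signals are not normalized, and the median over all probes was also higher on the oral mucosa array (52.2 against 42.2).

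To make the arrays comparable, Variance Stabilizing Normalization (VSN) was used. It estimates a background offset and a gain per array, and its output behaves like log2 for bright spots. Differences are oral mucosa minus skin on this scale. With 1 array per tissue there is no test, and a microRNA was called different at a difference of at least 1, which is 2-fold. Where only 1 array detected a probe, the other array's value was set at the lowest detected signal there. Such a difference is a fitted value and no lower bound, since VSN subtracts an offset that weighs heavily near the limit, and it has no rank.

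By this rule 4 of the 5 members were called higher in oral mucosa, and 0 were called in the other direction. Of all 562 detected microRNAs, 77 were called higher in oral mucosa (13.7%). The members had a median difference of 1.49, against a median of 0.00 over all detected microRNAs. On the normalized scale the oral mucosa spots lay above the skin spots for 5 of the 5 members and for 213 of the 562 detected microRNAs (37.9%). Among the members, miR-199b-5p and miR-214-5p were detected in oral mucosa only, so the detection rule itself favours this direction for them. The same holds for the other microRNAs detected in oral mucosa only. The members were chosen with earlier results of these data known, so these shares describe the arrays and are not independent evidence of a direction.

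Of the members detected on both arrays miR-214-3p differed most. It gave a difference of 2.17 (SD 0.19 from the repeat spots), a 4.49-fold higher value in oral mucosa, with mean signals of 184 ± 19.0 (SD) in skin and 948 ± 11.8 in oral mucosa. Among the 394 microRNAs detected on both arrays, in order of the difference toward oral mucosa, it stood at place 9. MiR-214-5p gave 2.25 against the skin limit (SD 0.18 from the oral mucosa spots), with mean signals of 54.7 ± 3.30 in skin and 191 ± 17.9 in oral mucosa. The plain ratio of these means was 3.49, and in the settings without VSN the difference of this microRNA was smaller, from 1.22 to 1.67 on the log2 scale.

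MiR-199a-3p gave a difference of 1.49 (SD 0.35), or 2.80-fold, with mean signals of 116 ± 17.9 in skin and 347 ± 22.1 in oral mucosa, and stood at place 17. MiR-199a-5p gave 1.01 (SD 0.13), or 2.01-fold, with mean signals of 79.0 ± 1.75 and 160 ± 9.11, and stood at place 46. It thus lay just inside the size rule, closer to it than its repeat-spot SD. MiR-199b-5p gave 0.27 against the skin limit (SD 0.08 from the oral mucosa spots), with mean signals of 53.5 ± 1.61 in skin and 82.8 ± 2.16 in oral mucosa, and did not pass the rule. Computed from its own skin signal, which lay under the limit, the difference would be 0.75, also under the rule.

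**Figure D2:**
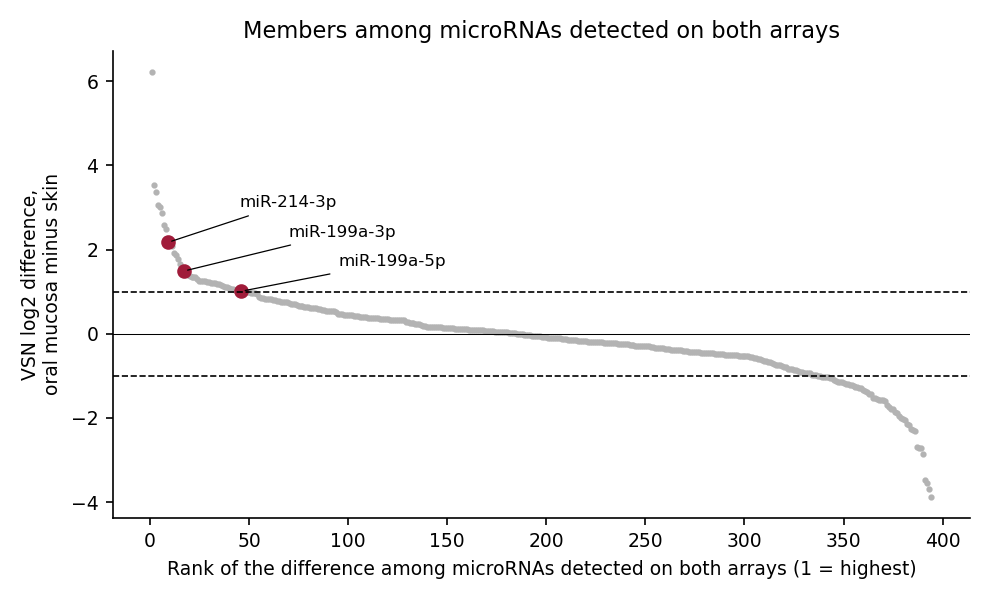
VSN log2 difference (oral mucosa minus skin) of the 394 microRNAs detected on both arrays against its rank, with the 3 members among them in red and dashed lines at a difference of 1 and -1. MiR-214-3p stands at place 9, miR-199a-3p at 17 and miR-199a-5p at 46, on the line of the size rule.

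Both arms of each hairpin pointed the same way. For miR-214 the gap between the arms (3p minus 5p) was -0.08 (SD 0.26) with the 5p arm set at the skin limit and -0.46 with its own skin signal. It ranged from -0.47 to 0.80 under the other normalizations, so the arms have no settled order. For miR-199a the 3p arm exceeded the 5p arm by 0.48 (SD 0.37), little more than the error of the spots. The difference of miR-214-3p exceeded that of miR-199a-5p by 1.16 (SD 0.23) and that of miR-199a-3p by 0.68 (SD 0.40). MiR-199a-5p exceeded its near-twin miR-199b-5p by 0.74 (SD 0.16), but only by 0.26 when the undetected skin signal of miR-199b-5p was used as read.

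Agreement between arms was not general on these arrays. Of the 42 microRNAs with both arms detected on both arrays, 25 had both differences on the same side of 0, or 59.5%, and the median size of the gap between arms was 0.64. Of these 42, 3 had both arms called higher in oral mucosa. Of the 88 with both arms detected on at least 1 array, 4 did. The 4 were miR-199a and miR-214, with miR-31, a keratinocyte microRNA, and miR-195a, a relative of miR-15 and miR-16. MiR-214 counts only in the wider set, because its 5p arm was detected in oral mucosa only and the detection rule favours this direction. MiR-199a counts through miR-199a-5p at 1.01, which passed under only 2 of 9 other normalizations. MiR-31 was named here after its values were seen.

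The brightness of dim spots changed along the array, and the miR-199 and miR-214 spots lie in different places on it. Among the probes detected on neither array, the median skin signal was 46.7 in the first 16 of the 128 rows and 34.3 in the last 16, whereas on the oral mucosa array it went from 53.2 to 47.2. The spots of the miR-214 probes lie in rows 21 to 37 and those of the miR-199 probes in rows 100 to 117. Of the 16 empty spots behind the detection limits, 12 lie at or past row 100, where the miR-199 spots begin. Within 3 rows and 3 columns, the detected probes around the miR-199 spots had median differences of 0.69 to 1.21 toward oral mucosa, and those around the miR-214 spots -0.50 to -0.09. Counting only neighbours detected on both arrays, the medians were 0.37 to 0.87 around the miR-199 spots and -0.50 to -0.13 around the miR-214 spots. The surroundings of miR-199 thus stood higher in oral mucosa and those of miR-214 did not. With signals used as read, miR-199a-5p at 1.01 did not exceed both of its detected surroundings, at 0.82 and 1.01. Nor did miR-199b-5p, at 0.75 against 0.82 and 0.69. MiR-199a-3p at 1.49 lay above its own, at 0.91 and 1.21. Each of these medians rests on 8 to 18 spots, and the windows of the miR-199 probes overlap.

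The differences were therefore recomputed after the median signal of the undetected probes within 8 rows had been taken out, an alternative chosen after this pattern was seen. MiR-199a-5p then fell to 0.64 and under the size rule, miR-199a-3p to 1.17, miR-214-3p to 1.95, and miR-199b-5p to 0.21, whereas miR-214-5p rose to 2.43. So 3 of the 5 members were then called, the arms of miR-214 and miR-199a-3p. Of all 562 detected microRNAs, 59 were then called higher in oral mucosa (10.5%). In plain scanner units above this row background, miR-214-3p read 141 in skin and 898 in oral mucosa, and miR-199a-3p read 80.4 and 299. MiR-199a-5p read 43.7 and 112 on this measure, and miR-199b-5p 18.3 and 34.98. The median difference of the detected probes around the miR-199 spots was then 0.30 to 0.84, and around the miR-214 spots -0.73 to -0.18, and for neighbours detected on both arrays 0.08 to 0.58 and -0.74 to -0.37. Both regions thus moved down together, and most of the contrast between them remained. The part of it in the miR-199 differences was not tested further.

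**Figure D3:**
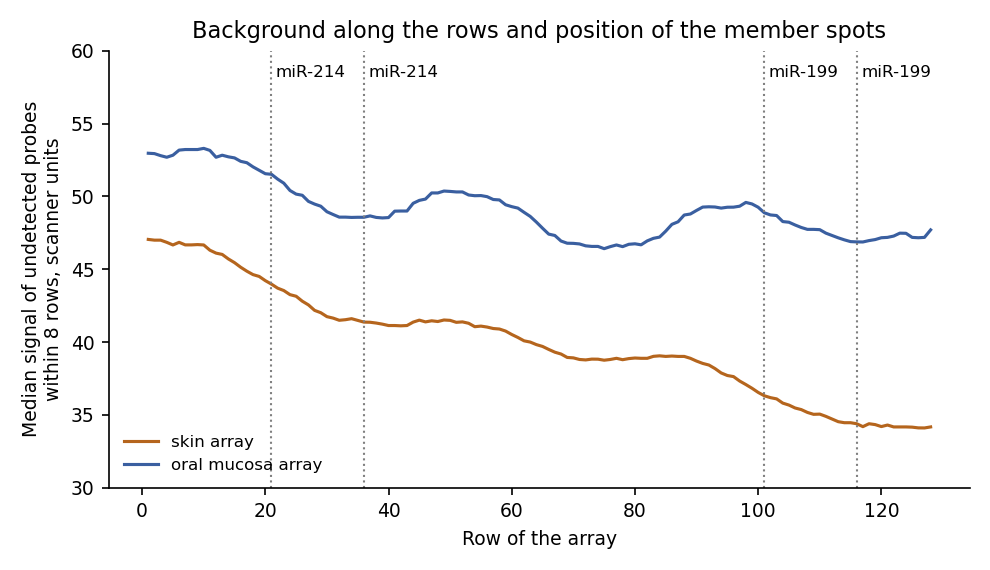
Median signal (scanner units) of the probes detected on neither array within 8 rows, along the rows of the arrays of skin (orange) and oral mucosa (blue), with dotted lines at rows 21, 36, 101 and 116 where member spots lie. The skin background falls from 46.7 to 34.3 between the first and last 16 rows and the oral mucosa background from 53.2 to 47.2, so the gap between the arrays is wider at the miR-199 rows.

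Under 9 other normalizations and background corrections the difference of miR-214-3p lay between 1.91 and 2.36, that of miR-199a-3p between 1.13 and 1.58, and that of miR-214-5p between 1.22 and 2.43. These 3 stayed past the size rule under all 9. MiR-199a-5p ranged from 0.51 to 1.02 and passed under 2 of the 9. These were normexp (a background correction) before VSN, at 1.01, and no normalization, at 1.02. MiR-199b-5p ranged from 0.013 to 0.47 and passed under 0 of them. The difference of every member was above 0 under each of the 9, though for miR-199b-5p by as little as 0.013. The detection rule favours this sign for miR-199b-5p and miR-214-5p. Over all detected microRNAs the median ranged from -0.16 with the row background removed to 0.40 with no normalization. All 9 reuse the same 2 arrays. In the authors' processed values miR-214-3p stood at 165 in skin and 794 in oral mucosa, miR-199a-3p at 90 and 256, and miR-199a-5p at 50 and 92. There miR-214-5p stood at 20 and 114, and miR-199b-5p at 19 and 28.

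**Figure D4:**
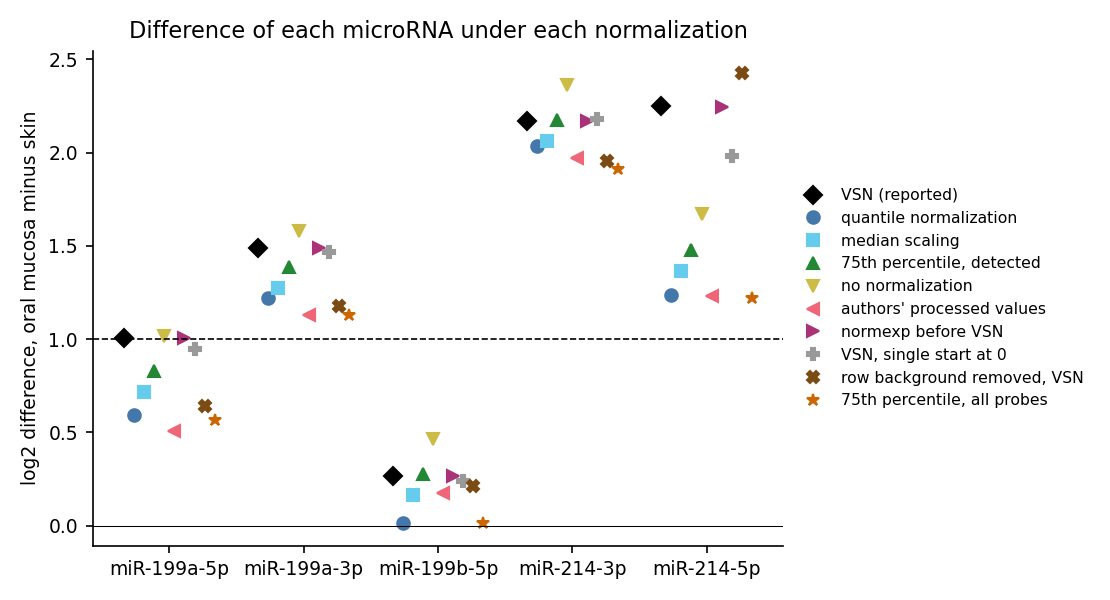
Log2 difference (oral mucosa minus skin) of each member under the VSN analysis (black diamonds) and 9 alternatives, with a dashed line at the size rule. MiR-214-3p, miR-214-5p and miR-199a-3p lie above the line throughout, miR-199a-5p mostly under it at 0.51 to 1.02, and miR-199b-5p under it throughout.

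Control RNA gave a check of the scale. The 5 probes for 5S ribosomal RNA had VSN differences from -0.33 to 0.25 with a median of -0.21, and the 17 detected calibration probes had a median of -0.13, within a range of -1.64 to 0.39. None of these reached the size rule toward oral mucosa. Whether equal amounts of the calibration RNA were added to the 2 arrays is not given in the sources used here.

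Other microRNAs of mesenchymal cells were mixed. Of a list of 14 that held none of the members, 14 had a probe and 11 were detected, of which 3 were called toward oral mucosa and 1 toward skin, with a median difference of 0.32. With the row background removed these counts became 2 and 3, and the median 0.20. The highest were miR-143-3p and miR-145a-5p, which mark smooth muscle and are made from 1 cluster. They also make up the smooth muscle list. MiR-145a-5p read 83.6 and 76.8 on its skin spots and 260 and 233 on its oral mucosa spots, a difference of 1.78 (SD 0.21). MiR-143-3p was detected in oral mucosa only, at 172 and 167, with a difference of 2.02 against the skin limit (SD 0.05 from the oral mucosa spots) and a plain ratio of 2.98. Both were called under each of the 9 other normalizations, where their median lay between 1.09 and 1.90. The opposite arms were not called. Only the oral mucosa array detected miR-143-5p, at 83.8 and 77.9, with a difference of 0.19 against the skin limit (SD 0.17). Of miR-145a, the 3p arm was detected on neither array. MiR-195a-5p gave 1.11 (SD 0.18), and miR-497-5p from the same cluster gave 0.44 (SD 0.15).

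The miR-29 family, which represses collagen genes and is found in fibroblasts, went both ways. MiR-29a-3p gave 0.32 (SD 0.12) and miR-29b-3p gave -0.83 (SD 0.41). MiR-29c-3p gave -1.59 (SD 1.13) and was the member of the list called higher in skin, but its skin spots of 146 and 330 disagreed. Of the remaining members of the list, miR-22-3p gave 0.47 (SD 0.11), miR-152-3p gave -0.71 (SD 0.29) and miR-140-3p, known from cartilage, gave -0.84 (SD 0.33). The list thus held differences in both directions.

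Markers of other cell types in these tissues were read beside the members. The 7 epithelial microRNAs (the miR-200 family, miR-203-3p and miR-205-5p) were all detected on both arrays and had a median difference of -0.48, with miR-429-3p (1.12, SD 0.89) called toward oral mucosa and miR-200c-3p (-1.22, SD 0.46) toward skin. Under the other normalizations this median lay between -0.72 with the row background removed and 0.00 with quantile normalization, with 0 to 2 called toward oral mucosa and 0 or 1 toward skin. Their summed signal in scanner units, before normalization, was 49225 in skin and 48779 in oral mucosa, most of it from miR-203-3p (18734 and 18503) and miR-205-5p (22415 and 21673). These sums do not correct for the gain of each array. On the VSN scale miR-203-3p gave -0.48 (SD 0.37) and miR-205-5p gave -0.51 (SD 0.59). Of 6 skeletal muscle microRNAs 3 were detected and 0 were called. Only the oral mucosa array detected miR-133a-3p (0.71 against the skin limit, SD 0.24) and miR-133b-3p (0.53, SD 0.13). Both arrays detected miR-206-3p (-0.19, SD 0.36), and neither detected miR-1a-3p. The summed signals of all 6, with background and undetected probes included, were 377 in skin and 519 in oral mucosa. Of the endothelial pair, only the oral mucosa array detected miR-126a-3p, with a difference of 1.84 against the skin limit (SD 0.70), while miR-126a-5p was detected on neither array. It was no longer called after quantile normalization (0.95) or scaling to the 75th percentile of all probes (0.92).

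Of the 7 red blood cell and leukocyte microRNAs with a probe, miR-451a and miR-150-5p were detected, and both were called toward oral mucosa. MiR-451a of red blood cells read 62.1 and 72.5 on the skin spots and 3177 and 2936 on the oral mucosa spots. Its difference was 6.21 (SD 0.37), while miR-144-3p from the same gene cluster was detected on neither array. MiR-150-5p, abundant in lymphocytes, was detected in oral mucosa only at 222 and 274. Its difference was 2.73 against the skin limit (SD 0.27), from 1.58 to 2.93 under the other normalizations, while miR-223-3p of neutrophils, miR-155-5p and both arms of miR-142, a microRNA of most blood cells, were detected on neither array. Thus the smooth muscle pair and 1 detected microRNA each of endothelium, red blood cells and leukocytes were called in the same direction as 4 of the members. Their part in the differences of miR-199 and miR-214 was not tested.

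**Figure D5:**
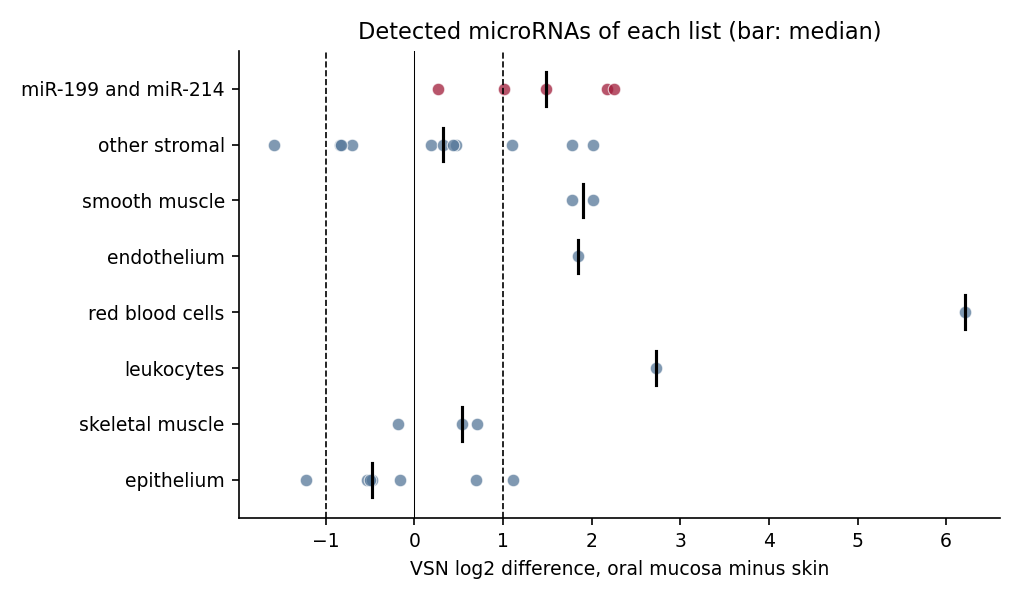
VSN log2 difference (oral mucosa minus skin) of every detected microRNA in each list, 1 point per microRNA with a bar at the median and dashed lines at -1 and 1. The members have a median of 1.49, the other stromal microRNAs 0.32 and the epithelial ones -0.48, and each of the blood, endothelial and smooth muscle points lies above 1.

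The microRNAs most like miR-199a-3p in their difference between the 2 arrays, among those detected on both, were miR-7b-3p (1.45, SD 0.56), miR-6347 (1.56, SD 0.67), miR-31-3p (1.41, SD 0.44), miR-3473e (1.37, SD 0.51) and miR-1306-3p (1.36, SD 0.35). Likeness was the gap between the differences, which was 0.04 to 0.13 over the 5 and smaller than the error of each of them.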

How the data were processed

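Total RNA was extracted from unwounded skin and oral mucosa, tailed, tagged and hybridised by a service provider to miRmouse v21 arrays (1 per tissue, label Cy5). The authors deposited the intensity of every spot (its median brightness, without background subtraction or scaling) and 1 processed intensity per probe, made by a method not given in the sources used here. The 184 control spots were left out except for the detection limit, the scale check and the normexp fit.

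Repeat spots were averaged. VSN, which the study names for these arrays, was written in Python after its published description (arsinh transformation, maximum likelihood, a fit that kept 90% of probes per signal slice, with 5 slices and 6 starts) and tested on simulated data. The CyberT test of the study was not run, since repeat spots of 1 array per tissue cannot test tissues. Alternatives were quantile normalization, median and 75th-percentile scaling, no normalization, the processed values as log2(value + 50), normexp with an offset of 50 before VSN, VSN from 1 start, single repeat spots, other limits and thresholds, and row background removal. MicroRNAs named are the members, probes sharing their seed, precursors within 10 kb, the lists (epithelium, skeletal muscle, endothelium, red blood cells, leukocytes, smooth muscle, other stromal) and the 5 nearest differences to miR-199a-3p. The members and lists were chosen with earlier results of these data known. MiR-142a-3p, miR-142a-5p and miR-497a-5p were matched by sequence to the probes miR-142-3p, miR-142-5p and miR-497-5p, and miR-486a-5p matched none. Sequences were taken from the array files and RefSeq (GRCm38.p6), where 4 of the 5 members matched by name and sequence. Tools were Python 3.11.15, numpy 2.4.6, scipy 1.17.1, pandas 2.3.3, matplotlib 3.10.9, R 4.3.3 and limma 3.58.1.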

Additional observations from a re-analysis of the deposited data

How the results depend on the processing

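No paired analysis was possible because the tissues have 1 array each. The row background removal and the 75th percentile of all probes were chosen after seeing the data. The count of 4 members called was 3 with quantile normalization, median scaling, either 75th-percentile scaling, the processed values, VSN from a single start, row background removal, the second repeat spot only or detection required on both arrays (which leaves out miR-214-5p), and 2 at a 4-fold threshold. The median of 1.49 was 1.13 with the 75th percentile of all probes and 1.13 with the processed values. Over all probes 160 were called, against 80 with quantile normalization, 85 with median scaling, 85 with the 75th percentile of the detected probes, 85 with that of all probes, 102 with no normalization and 87 with the processed values. The share of calls toward oral mucosa was 48.1%, and 63.5% with the 75th percentile of the detected probes, 78.4% with no normalization and 35.5% with row background removal. In these settings the median over all detected microRNAs was 0.20, 0.40 and -0.16, and the median of the members exceeded it by 1.18, 1.18 and 1.33.

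For miR-199a-5p the difference of 1.01 became 0.60 with quantile normalization, 0.71 with median scaling, 0.83 and 0.57 with the 75th percentile of detected and of all probes, 0.51 with the processed values and 0.64 with row background removal. For miR-199a-3p the value of 1.49 became 1.13 with the 75th percentile of all probes and 1.13 with the processed values. For miR-199b-5p the value of 0.27 became 0.013, 0.16, 0.014, 0.47 and 0.18 with quantile normalization, median scaling, the 75th percentile of all probes, no normalization and the processed values. For miR-214-3p the value of 2.17 became 1.91 with the 75th percentile of all probes, 2.36 with no normalization, 1.97 with the processed values and 1.95 with row background removal. For miR-214-5p the value of 2.25 became 1.23 with quantile normalization, 1.37 with median scaling, 1.48 and 1.22 with the 75th percentile of detected and of all probes, 1.67 with no normalization, 1.23 with the processed values, 1.98 with VSN from a single start and 2.67 with row background removal and a recomputed limit. On uncorrected scales a dim signal keeps its background, which by construction shrinks differences of dim probes. The 50 added to each processed value also shrinks them by construction. With no normalization the gain of each array also stays in, and not every value shrank. There miR-199b-5p rose from 0.27 to 0.47, miR-199a-3p from 1.49 to 1.58 and miR-214-3p from 2.17 to 2.36. MiR-199a-5p was 1.02 against 1.01, and miR-214-5p fell from 2.25 to 1.67. Plain ratios of the processed values, oral mucosa over skin, were 1.84 for miR-199a-5p and 2.84 for miR-199a-3p. They were 4.81 for miR-214-3p, 5.7 for miR-214-5p and 1.47 for miR-199b-5p. The causes were not otherwise tested. With the limit recomputed after row background removal, all 5 members were detected on both arrays. Signal over background limits miR-199b-5p and the skin values of miR-199a-5p and miR-214-5p most.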
